A study of Mus musculus with 2 samples.

Results

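Atrial heart muscle cells of the newborn mouse that carried messenger RNA of the late cell cycle were set against those that carried none. Atrial barcodes were droplets with at least 500 detected genes and haemoglobin genes below 0.5% of counts. Their ventricular and atrial light chain genes Myl2 and Myl7 summed to at least 10 counts and 0.3% of counts, Myl2 held under 0.2 of that sum as a fraction, and the endothelial genes Pecam1 and Cdh5 had 0 counts. A score was the summed count of 8 genes: Top2a, Mki67, Ccnb1, Ccna2, Cenpf, Hmmr, Anln and Racgap1. Barcodes with a score of at least 5 are called cycling here and those with a score of 0 resting. Of 11935 barcodes in the series, 1266 met the atrial rule, of which 80 were cycling and 1025 resting, or 1105 members in all. The other 161 atrial barcodes, with scores of 1 to 4, belonged to neither group. The members were selected on these measured counts, the same that are compared below, so all differences are descriptions without a test, and the 8 score genes and the 8 genes of the atrial rule were left out of every result.

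The cells came from P0 whole mouse hearts (background C57BL6 and ICR) that had been dissociated in trypsin, and RNA was read cell by cell in 10x droplets. The series belongs to work on a platform for combinatorial reprogramming read out in single cells. It held 1 biological sample, with 5888 barcodes in technical replicate 1 and 6047 in technical replicate 2, and all cells shared the strains, age and digestion. Cycling barcodes numbered 42 in technical replicate 1 and 38 in technical replicate 2, and resting barcodes numbered 582 and 443.

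Heart muscle cells divide during fetal life and largely leave the cell cycle in the days after birth, often after a last round of DNA synthesis without cell division. In a dividing cell, E2F factors first switch on the genes of DNA synthesis, and the MuvB complex with B-Myb and Foxm1 then switches on the genes of mitosis. The MuvB complex binds a short promoter element, the cell cycle homology region (CHR), which often lies beside CCAAT boxes bound by NF-Y. Dividing heart muscle cells also take their sarcomeres, the contractile units, apart.

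Promoters of 4 genes from the replication, mitotic kinase and spindle lists are shown because these genes had the largest or nearly the largest ratios of their lists and their promoters hold the motifs counted below. They are RefSeq promoters of GRCm38.p6, from 250 bases before to 50 after the annotated start, given 5′ to 3′ on the gene's strand, with CHR (TTTGAA or TTCGAA) and CCAAT letters in capitals on either strand.
Pclaf promoter (chr9:65890073-65890372, plus strand): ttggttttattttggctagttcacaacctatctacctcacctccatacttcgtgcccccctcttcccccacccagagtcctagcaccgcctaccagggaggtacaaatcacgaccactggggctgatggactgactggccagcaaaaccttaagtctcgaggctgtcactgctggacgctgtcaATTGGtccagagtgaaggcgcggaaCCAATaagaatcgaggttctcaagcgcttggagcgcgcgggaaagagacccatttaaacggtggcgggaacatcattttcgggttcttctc
Bub1 promoter (chr2:127831810-127832109, minus strand): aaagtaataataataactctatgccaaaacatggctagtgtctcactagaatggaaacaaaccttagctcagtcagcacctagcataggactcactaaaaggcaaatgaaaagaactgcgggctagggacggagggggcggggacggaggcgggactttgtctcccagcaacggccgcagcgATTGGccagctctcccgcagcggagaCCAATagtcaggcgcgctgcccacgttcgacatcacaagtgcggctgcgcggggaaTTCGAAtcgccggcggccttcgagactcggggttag
Aspm promoter (chr1:139454523-139454822, plus strand): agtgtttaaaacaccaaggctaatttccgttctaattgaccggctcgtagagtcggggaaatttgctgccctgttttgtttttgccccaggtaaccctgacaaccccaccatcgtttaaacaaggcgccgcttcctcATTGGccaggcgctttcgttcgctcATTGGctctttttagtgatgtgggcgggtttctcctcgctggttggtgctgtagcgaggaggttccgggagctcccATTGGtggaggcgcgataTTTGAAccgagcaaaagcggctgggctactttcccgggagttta
Depdc1a promoter (chr3:159495183-159495482, plus strand): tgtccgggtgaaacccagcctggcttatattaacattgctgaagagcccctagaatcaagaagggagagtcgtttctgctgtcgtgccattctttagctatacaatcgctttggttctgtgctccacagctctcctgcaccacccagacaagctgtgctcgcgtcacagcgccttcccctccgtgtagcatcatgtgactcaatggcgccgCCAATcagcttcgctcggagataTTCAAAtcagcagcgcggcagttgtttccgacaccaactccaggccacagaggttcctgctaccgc

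Bub1, Aspm and Depdc1a held both a CHR and a CCAAT match, while Pclaf held CCAAT matches alone. The CHR match began 15 bases after the start site in Bub1, 7 after it in Aspm and 16 before it in Depdc1a. The 2 CCAAT matches of Pclaf began 66 and 41 bases before its start. Matches on both strands were counted, and different motifs could overlap. A promoter was matched for 33 of 40 mitotic kinase, 47 of 59 listed spindle, 41 of 52 replication and 42 of 50 listed sarcomere genes. Of the mitotic kinase promoters, 22 of 33 (66.7%) held a CHR, as did 30 of 47 spindle promoters (63.8%), 9 of 41 replication promoters (22.0%) and 4 of 42 sarcomere promoters (9.52%). Among all 27025 promoters, 1 per gene, 19.4% held it, and among the 4565 promoters of genes compared below 13.9%. CCAAT was found in 75.8% of mitotic kinase, 63.8% of spindle, 63.4% of replication and 28.6% of sarcomere promoters, beside 37.9% of all. CHR and CCAAT occurred together in 57.6% of mitotic kinase promoters and 7.70% of all. The E2F letters TTTCGCGC or TTTGGCGC were in 10 of 41 replication promoters (24.4%), 1 of 33 mitotic kinase promoters (3.03%), none of 42 sarcomere promoters and 0.833% of all. These are letter matches and not binding sites.

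Barcodes of both groups carried atrial RNA and little of other cells. Of 5 atrial markers outside the rule (Nppa, Sln, Myl4, Mybphl and Stard10), none was at 0, and they summed to 25263 CPM (counts scaled to 1000000 per group) in cycling, 38362 CPM in resting and 487 CPM in ventricular barcodes. The 5 ventricular markers, Myl3 foremost, summed to 653 CPM in cycling and 675 CPM in resting barcodes, against 7267 CPM in ventricular ones, and Irx4 was at 0 in cycling barcodes. Markers of fibroblasts summed to 406 CPM in cycling and 435 CPM in resting barcodes (all barcodes 3258 CPM), with Pdgfra at 0 in cycling ones. Endothelial markers gave 53.1 and 47.3 CPM in cycling and resting barcodes, smooth muscle or pericyte markers 95.1 and 151 CPM, macrophage markers 12.6 and 26.6 CPM with Ptprc at 0 in cycling ones, epicardial markers 12.6 and 15.4 CPM, and erythroid markers 2.80 and 2.20 CPM. The sums of macrophage and of smooth muscle or pericyte markers were thus lower in cycling barcodes, the former at a very low level. Of the smooth muscle or pericyte markers, Eln (43.4 against 97.9 CPM) and Tagln (25.2 against 36.1 CPM) were lower in cycling barcodes. Rgs5 (21.0 against 13.9 CPM), Pdgfrb (4.20 against 2.88 CPM) and Myh11 (1.40 against 0.509 CPM) were higher. The part of these markers in the results below was not tested.

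Cycling barcodes were deeper than resting ones. Their median was 8682 and 7990.5 counts in technical replicates 1 and 2 (lowest 1947, highest 20696 over both), against 5428.5 and 5521 counts in resting barcodes (lowest 1899, highest 17310). They held a median of 2862.5 and 2781.5 genes, against 1965 and 1977 in resting barcodes. The median mitochondrial share was 17.4% and 17.8% of counts in cycling barcodes, against 20.9% and 22.1% in resting ones. Summed counts were 387950 and 327012 in cycling and 3262415 and 2633930 in resting barcodes. A raw count score picks deep barcodes, the part of depth and mitochondrial share in the results below was not tested beyond the depth-matched values given there, and more RNA per cell and deeper capture cannot be told apart here. In total 53 barcode sequences occurred in both libraries, 0 of them among cycling and 20 among resting barcodes.

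Cycling barcodes made up 6.32% of atrial barcodes (80 of 1266, exact Clopper-Pearson 95% interval 5.04% to 7.80%), with 6.02% in technical replicate 1 and 6.69% in technical replicate 2. Under the same steps, ventricular barcodes (Myl2 at a fraction of at least 0.8) were cycling in 6.00% of cases (180 of 3001, interval 5.18% to 6.91%), so the atrial and ventricular intervals overlapped. After thinning each barcode to 3000 counts, 5.29% of 1097 atrial (4.04% to 6.78%) and 4.48% of 2701 ventricular barcodes (3.73% to 5.33%) kept a score of at least 5. All intervals cover counting error only.

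Of 5715 genes compared, 355 were at least 2-fold higher in cycling barcodes in both technical replicates, 6.21% of genes, and 63 were at least 2-fold lower in both (ratio at most 0.5), 1.10% of genes. A gene was compared when cycling and resting barcodes together had at least 20 counts in each technical replicate and its mean of cycling and resting CPM was at least 20. Exact intervals of the ratio lay above 1 for all 355 higher genes and below 1 for all 63 lower ones, again for counting error only. The genes were picked by their ratios on the same counts, so this outcome was nearly fixed in advance and lends them no support. The median log2 ratio of all genes was 0.16, so more genes lay above 1 in both technical replicates (2668) than below (1369). With the median ratio set to 1, 271 genes were higher and 109 lower. Of 5191 genes with at least 20 CPM in resting barcodes, which did not enter through the cycling group alone, 2.93% were higher and 1.21% lower. All 63 lower genes belong to this set by construction, so the 1.21% is no check on them. Some of them entered through their resting level alone. Resting barcodes matched one to one by depth gave 277 higher genes, 224 of them among the 355, and 48 lower genes, 30 of them among the 63.

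**Figure D1:**
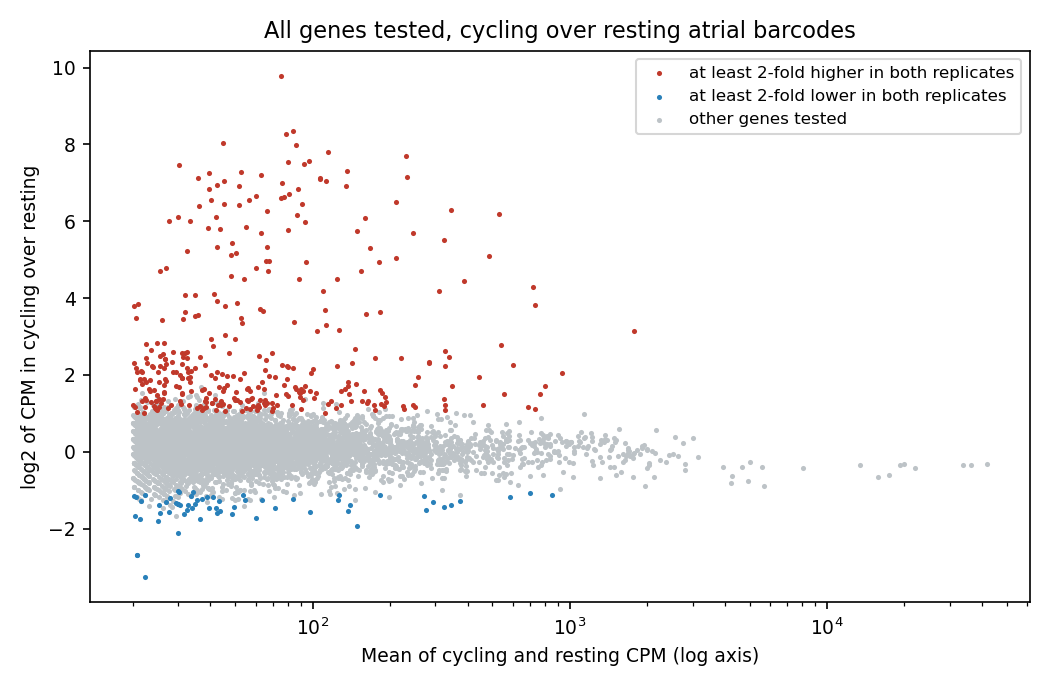
Ratio of each compared gene (log2 of CPM in cycling over CPM in resting atrial barcodes) against its mean CPM on a log axis, with one point per gene. The 355 red genes reach far above the 63 blue genes' distance from 0, and Kif2c, with no resting count, is not drawn.

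Nearly all cycling barcodes held more counts of mitosis genes than of replication genes. With the score genes left out, the mitotic kinase and spindle lists together held a median of 99.5 counts per cycling barcode (lowest 18, highest 668), against a median of 5 in resting barcodes (highest 34). The replication list held a median of 12.5 counts per cycling barcode (lowest 1, highest 85), against 3 in resting barcodes (highest 58). In 77 of 80 cycling barcodes, 40 in technical replicate 1 and 37 in technical replicate 2, the mitosis genes had more counts than the replication genes, though the lists differ in their number of genes. Across the 80 barcodes the shares of counts in mitosis and replication genes had a Spearman rho of 0.003, given as a description since both are shares of 1 barcode's counts. The score consists of late cell cycle genes, so barcodes in early DNA synthesis could fall outside the cycling group. In resting barcodes, 102 of 1025 (9.95%) had a replication share at or above the cycling median.

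**Figure D2:**
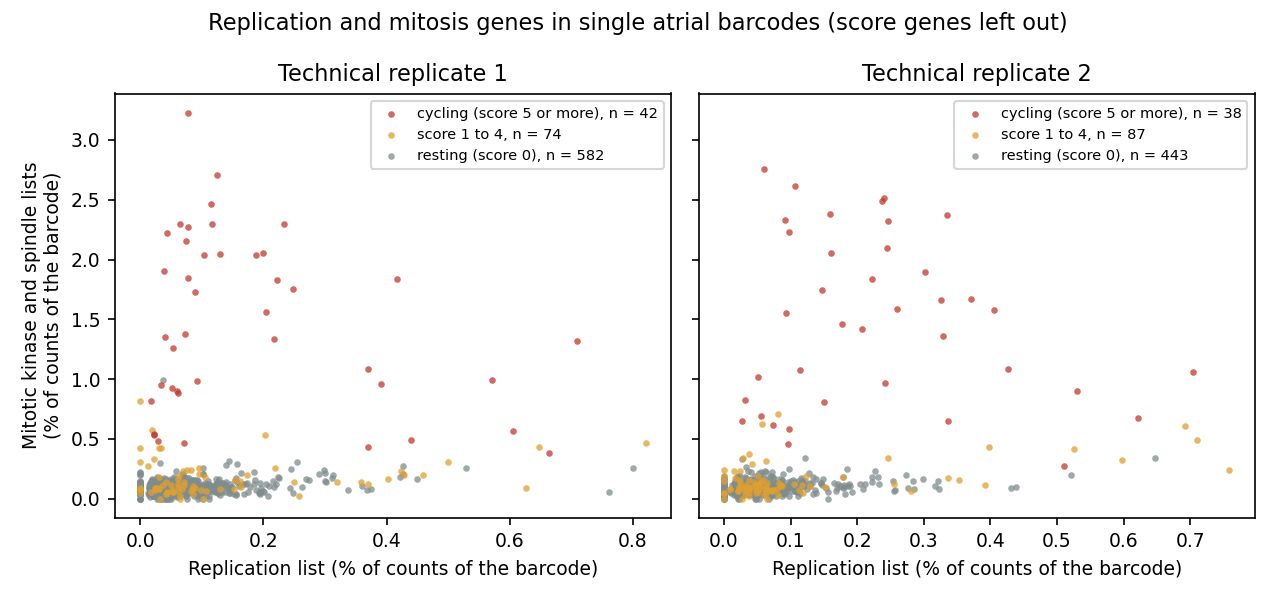
Share of each barcode's counts in the mitotic kinase and spindle lists (vertical, %) against the replication list (horizontal, %), by technical replicate, with one point per atrial barcode. Cycling barcodes spread upward to 3.23%, while the resting median is 0.0880%, and resting barcodes with a high replication share lie along the bottom.

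Along the score, the gene lists did not change in step. The mitotic kinase list summed to 410 CPM in the 1025 barcodes with score 0, 626 CPM at scores 1 to 2 (148 barcodes), 2096 CPM at 3 to 4 (13 barcodes), 3428 CPM at 5 to 9 (15 barcodes), 4900 CPM at 10 to 19 (21 barcodes) and 9287 CPM at 20 or more (44 barcodes). The replication list instead stood at 739, 1046, 2873, 1775, 3004 and 1874 CPM over the same steps. Its highest values were thus at scores 3 to 4 and 10 to 19, in bins of few barcodes. Ribosomal protein genes had 38967, 42979, 61086, 59633, 49878 and 40733 CPM, so the highest and lowest scores were alike and the middle was higher. The sarcomere list had 56818, 56139, 47101, 47641, 43064 and 39733 CPM. At the threshold itself, 5 barcodes had a score of 4, with 1800 CPM of mitotic kinase and 39167 CPM of sarcomere genes, and 2 barcodes had a score of 5, with 2643 and 56318 CPM.

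**Figure D3:**
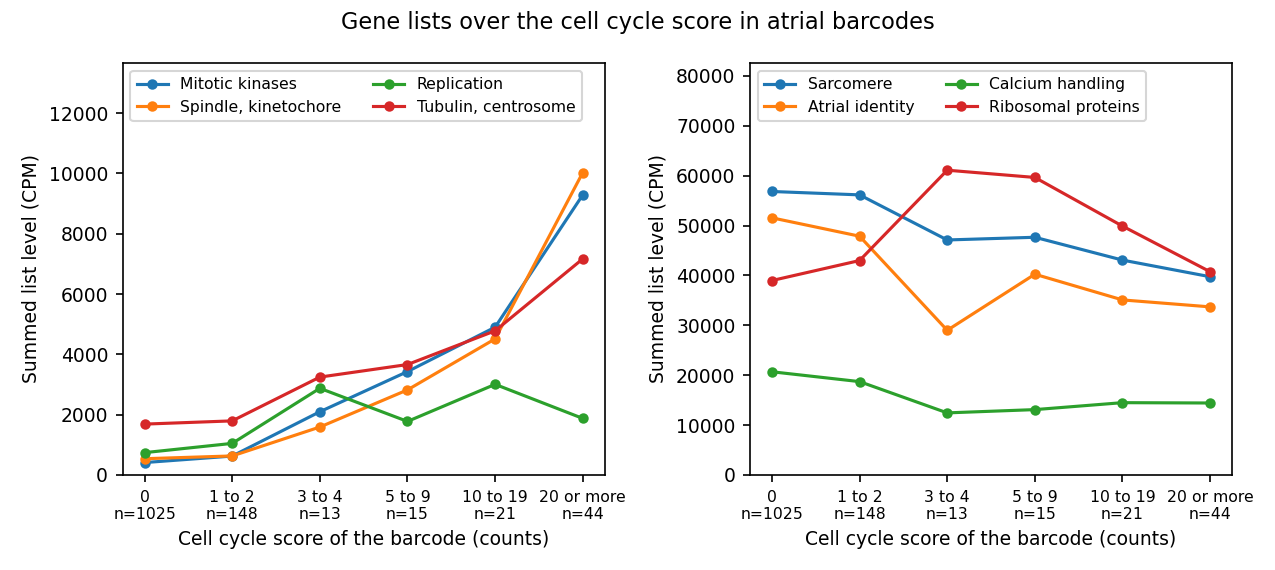
Summed level of 8 gene lists (CPM) over the cell cycle score of atrial barcodes, from 0 to 20 or more, with the number of barcodes under each step. Mitotic kinases climb from 410 to 9287 CPM with the score, while sarcomere genes stand at 56818 CPM at score 0 and 39733 CPM at 20 or more.

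Among genes that license and copy DNA, most compared members were higher in cycling barcodes. Of 52 replication genes in the files, 25 were compared, 14 of them only through their cycling level, and 16 were higher and none lower. The median log2 ratio was 1.31, beside 0.16 over all genes, and 1.05 for the 11 members with at least 20 CPM in resting barcodes. Pclaf, a partner of the replication clamp PCNA (chromosome 9, 65890237 to 65903266 of GRCm38), had 312 and 339 CPM in cycling barcodes in technical replicates 1 and 2, against 7.97 and 8.35 CPM in resting ones. That was a ratio of 39.9 (interval 29.1 to 55.6). Uhrf1, which carries DNA methylation over to the new strand, had a ratio of 12.4 (7.49 to 20.7), Gmnn, the inhibitor of relicensing, 7.65 (5.12 to 11.4), and Rfc4 of the clamp loader 5.50 (3.55 to 8.43). The helicase genes Mcm3 and Mcm6 were higher at 2.47 and 2.49, while Mcm2 had a ratio of 1.48 (1.66 and 1.26 in the technical replicates) and Mcm4, at too low a level to be compared, had 14 counts in cycling and 114 in resting barcodes. The licensing factor genes Cdc6 and Cdt1, which act before DNA synthesis, had 1 and 7 counts in cycling barcodes and were not compared either.

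Nucleotide supply followed the same pattern. Of 18 genes, 11 were compared, 4 of them only through their cycling level, and 8 were higher and none lower. The median log2 ratio was 1.68. Of the 7 members with at least 20 CPM in resting barcodes 4 were higher, with a median of 1.54. Rrm2, Mthfd2 and Tk1 were not among these 7. Rrm2, the regulated subunit of ribonucleotide reductase (chromosome 12, 24708241 to 24714146), had 320 and 517 CPM in cycling barcodes and 12.0 and 12.9 CPM in resting ones, a ratio of 33.1 (25.5 to 43.4). Mthfd2, a mitochondrial folate enzyme, stood at 16.9 (9.94 and 24.2 in technical replicates 1 and 2), the thymidine kinase Tk1 at 14.8 and the large reductase subunit Rrm1 at 8.91. Of 24 repair and checkpoint genes, 4 were compared, 1 of them only through its cycling level. Of these 4, 3 were higher, among them the deubiquitinase Usp1 at 3.55 and the checkpoint scaffold Topbp1 at 3.31. The other 20 were too low to be compared.

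**Figure D4:**
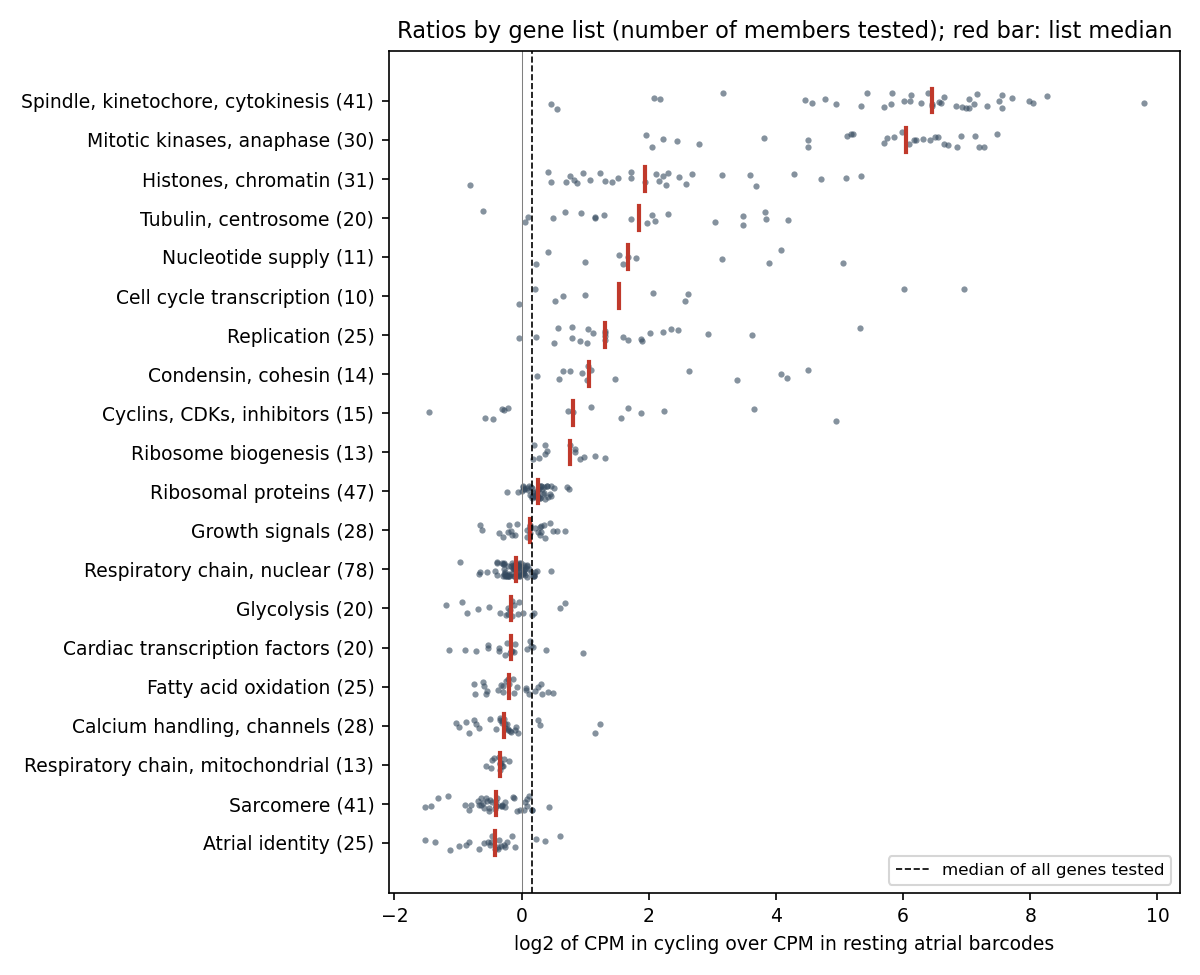
Log2 ratio of CPM in cycling over resting barcodes for each compared member (points) of 20 gene lists, with the list median (red) and the median of all genes, 0.16 (dashed); Kif2c is not drawn. The mitotic medians are 6.04 and 6.46 and the replication median 1.31, while sarcomere and atrial identity medians are −0.41, a sign that turns when counts are taken per barcode.

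Mitotic kinases and their regulators summed to 7396 CPM in cycling and 410 CPM in resting barcodes, as follows in part from a score built on genes of the same phase. All 30 compared of 40 genes were higher, 25 of them compared only through their cycling level, with a median log2 ratio of 6.04. The 5 members with at least 20 CPM in resting barcodes had a median of 2.23. Cdc25c, the phosphatase that activates Cdk1, had 59.3 and 61.2 CPM in cycling barcodes and 2 counts in all resting barcodes, a ratio of 177 (interval 46.2 to 1511). Bub1, a spindle checkpoint kinase (chromosome 2, 127801122 to 127831865), had 69.6 and 88.7 CPM in cycling barcodes and 3 resting counts, a ratio of 154 (50.0 to 769) that was 114 and 234 in technical replicates 1 and 2. The centrosome kinase Nek2 had a ratio of 147 (60.6 to 463) and Sgo1, the protector of centromere cohesion, 140 (45.3 to 702), or 86.9 in technical replicate 1, with no resting count in technical replicate 2. Better counted members gave narrower intervals: Cdk1, the central mitotic kinase, had 265 and 324 CPM in cycling against 6.44 and 4.18 CPM in resting barcodes, a ratio of 53.9 (37.0 to 80.8), and Ube2c, a ubiquitin enzyme of anaphase, had 678 and 691 CPM against 8.28 and 9.11 CPM, a ratio of 79.1 (59.2 to 108).

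Spindle, kinetochore and cytokinesis genes were higher in 39 of 41 compared members of 58, 36 of them compared only through the cycling group, with a median log2 ratio of 6.46, or 2.18 for the 5 with at least 20 CPM in resting barcodes. The microtubule depolymerase Kif2c had 59.3 and 73.4 CPM in cycling barcodes and 0 counts in resting ones, at least 129-fold higher against a floor of 3 counts over the resting group; the exact interval of the ratio, which also covers the error of the 47 cycling counts, began at 101. Aspm, a spindle pole protein (chromosome 1, 139454772 to 139494091), had 107 counts in 80 cycling and 1 count in 1025 resting barcodes, a ratio of 882 (155 to 35176). Its single resting count lay in technical replicate 1, where the ratio was 555. Depdc1a had a ratio of 308 (103 to 1515), with 488 and 217 in technical replicates 1 and 2. The cohesin acetyltransferase Esco2 had 264 (70.1 to 2226), or 135 in technical replicate 1, with no resting count in technical replicate 2. Genes that act in cytokinesis were among them: Prc1, which bundles the central spindle, had 449 and 474 CPM in cycling against 2.45 and 1.90 CPM in resting barcodes, a ratio of 209. Ect2, which starts the cleavage furrow, had 193 and 150 CPM against 0.920 and 2.28 CPM, a ratio of 114 (210 and 65.8). RNA of these genes does not show whether a cell divided or only its nucleus.

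Chromatin and microtubule genes were mostly higher. Of 31 compared histone and chromatin genes, 22 were higher and none lower, with a median log2 ratio of 1.94, or 1.72 for the 27 with at least 20 CPM in resting barcodes. Of these 27, 18 were higher, beside 2.93% of all genes at that resting level. Asf1b, a histone chaperone, had a ratio of 40.5 (21.6 to 82.9), the centromere histone Cenpa 34.5, the damage-marking histone H2afx 26.2 and the DNA-bending protein Hmgb2 19.4. Asf1b and H2afx were among 4 compared only through their cycling level. Cenpa differed between technical replicates, at 44.8 and 24.3. Of 14 compared condensin and cohesin genes, 5 were higher, and the condensin core genes Smc2 at 22.6 and Smc4 at 18.05 led, followed by Ncapg2 at 16.9 and Ncapd2 at 10.4. Smc2, Ncapg2 and Ncapd2 were compared only through their cycling level. Of the 10 members with at least 20 CPM in resting barcodes 2 were higher, with a median log2 ratio of 0.99. The cohesin core genes Smc1a and Smc3, which hold sister chromatids together, had ratios of 2.04 and 1.94, just short of 2 in at least 1 technical replicate. Of 20 compared tubulin and centrosome genes, 11 were higher (median log2 ratio 1.85, or 1.05 for the 10 with at least 20 CPM in resting barcodes). Of these 10, 4 were higher, beside 2.93% of all genes at that resting level. Tubb6 at 18.2, Cdk5rap2 at 14.4, the tubulin-binding Stmn1 at 14.2 and Tuba1c at 11.2 led. Tubb6, Cdk5rap2 and Tuba1c were among 10 compared only through their cycling level. Tubulin genes have near-identical copies, so their single values are uncertain.

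The D-type cyclins Ccnd2 and Ccnd3, which drive entry into the cycle, had ratios below 1 on the CPM scale, and above 1 per barcode when pooled. Ccnd2 had 289 and 269 CPM in cycling against 373 and 394 CPM in resting barcodes, a ratio of 0.732, and Ccnd3 had 79.9 and 73.4 CPM against 111 and 119 CPM, a ratio of 0.671. Ccnd1, with 3 counts in cycling and 60 in resting barcodes, was too low to be compared. Per barcode and without scaling to the total, Ccnd2 had 2.67 and 2.32 counts in cycling against 2.09 and 2.34 in resting barcodes, and Ccnd3 had 0.738 and 0.632 against 0.624 and 0.707, so both turned in technical replicate 1. The pooled per-barcode ratios were 1.14 for Ccnd2 and 1.04 for Ccnd3, beside 1.55 for all counts together. Their partner Cdk4 had a ratio of 1.67 (1.73 and 1.59), and Cdk6 had 0.825 (0.785 and 0.871).

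Of the kinase inhibitors compared, Cdkn1c alone was lower. The INK4 inhibitor genes Cdkn2c and Cdkn2d, whose products block Cdk4 and Cdk6, were both higher. Cdkn2c (chromosome 4, 109660876 to 109667189) had 369 and 327 CPM in cycling against 10.4 and 12.5 CPM in resting barcodes, a ratio of 30.8 (23.4 to 40.9). Cdkn2d had 379 and 290.5 CPM against 28.2 and 25.4 CPM, a ratio of 12.6 (10.2 to 15.4). Cdkn1c, the imprinted inhibitor p57 (chromosome 7, 143458339 to 143461050), was the 1 lower member of the list, with 18.04 and 18.3 CPM in cycling against 49.0 and 50.9 CPM in resting barcodes, a ratio of 0.365 (0.192 to 0.633) on 13 cycling counts. Cdkn1a (p21) had 33.5 and 82.6 CPM in cycling against 17.8 and 17.1 CPM in resting barcodes, and its ratio of 1.88 in technical replicate 1 missed the factor of 2. Its pooled ratio was 3.20, or 1.77 against depth-matched resting barcodes. Cdkn1b (p27) had ratios of 2.16 and 1.25. The retinoblastoma family genes Rbl1 at 4.71 and Rb1 at 3.67, repressors of E2F, were higher. Cdkn2c, Cdkn1a, Rbl1 and Rb1 were under 20 CPM in resting barcodes and were compared only through their cycling level. Cdkn1c was under 20 CPM in cycling barcodes and was compared only through its resting level.

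**Figure D5:**
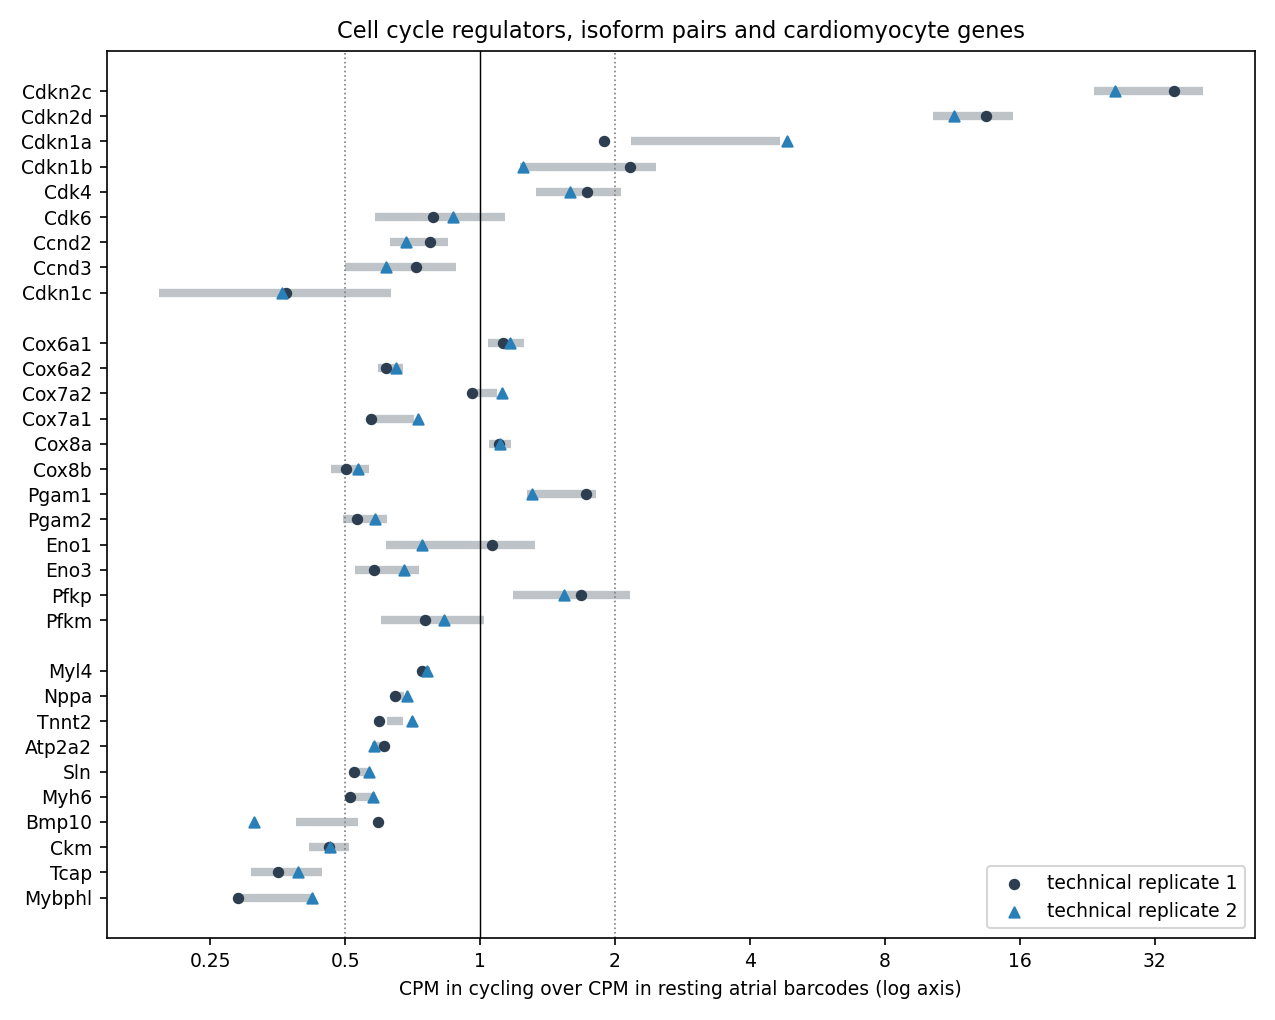
Ratio of CPM in cycling over resting barcodes on a log axis for cell cycle regulators, isoform pairs and cardiomyocyte genes, by technical replicate (symbols), with the pooled exact 95% interval for counting error (grey). Cdkn2c lies at 30.8 and Cdkn1c at 0.365. The muscle form of each isoform pair lies left of its partner, and the cardiomyocyte genes drawn lie left of 1 on the CPM scale. These directions follow in part from the choice of genes. The pairs and Ckm were chosen after their values were seen, and Tcap and Mybphl for being lower. Heart genes with ratios above 1, such as Nr2f2 (1.29) and Gata4 (1.06), are not drawn.

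Transcription factors of the cycle were mostly low. Of 24, 10 were compared and 5 were higher. These 5 were compared only through their cycling level. Of the 5 members with at least 20 CPM in resting barcodes none was higher, with a median log2 ratio of 0.53. The MYC-network repressor Mxd3 had 61.9 and 110 CPM in cycling barcodes and 4 counts in resting ones, a ratio of 124 (45.9 to 469). Foxm1, the activator of mitosis genes, had 51.6 and 82.6 CPM in cycling barcodes and 6 resting counts, a ratio of 64.6 (27.6 to 185). E2f8 at 6.11, a repressor, and E2f1 at 5.96, an activator, were higher in both technical replicates, at 3.53 and 9.46 for E2f8 and 3.68 and 9.15 for E2f1. Mybl2, which encodes B-Myb, had 6 counts in cycling and 4 in resting barcodes and was not compared.

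Summed as a list, sarcomere genes held a smaller share of the counts in cycling barcodes, but not fewer counts per barcode. Of 41 compared of 49 genes, 4 were lower and none higher. A ratio below 1 in both technical replicates was found for 28, beside 1369 of all 5715 genes. The median log2 ratio of −0.41 (beside 0.16 over all genes) was −0.54 against depth-matched resting barcodes and 0.23 when counts were taken per barcode. Per barcode, the list summed to 372 counts in cycling and 326 in resting barcodes, a ratio of 1.14, while all genes together summed to 8937 and 5753 counts, a ratio of 1.55. Per barcode, 4766 of 5715 genes were above 1 in both technical replicates, and 21 of 41 sarcomere genes. Below 1 in both were 214 of the 5715 genes and 9 of the 41 sarcomere genes. At the level of single barcodes, sarcomere genes took 1.66% to 9.54% of counts in cycling barcodes (median 3.86%), against 0.379% to 15.8% in resting ones (median 5.13%), and the ranges overlapped.

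The 4 lower sarcomere genes encode parts of the Z disc, the M band and the myosin filament. Mybphl, a myosin-binding protein of the atria (chromosome 3, 108364911 to 108380057), had 119 and 171 CPM in cycling against 412 and 407 CPM in resting barcodes, a ratio of 0.348 (0.283 to 0.425). Tcap, which caps titin at the Z disc, had 165 and 187 CPM against 466 and 476 CPM, a ratio of 0.371 (0.308 to 0.445). Synpo2l, a Z disc protein, had a ratio of 0.402 and Myom2, an M band protein, 0.450. Per barcode, where a ratio of at most 0.5 could not pass 1 given the difference in depth, Mybphl had 1.28 counts in cycling and 2.36 in resting barcodes and Tcap 1.56 and 2.71. The main filament genes were nearer to 1 on the CPM scale: the myosin heavy chain Myh6 had a ratio of 0.541, troponin T (Tnnt2) 0.645, cardiac actin (Actc1) 0.764 and titin (Ttn) 0.809. Per barcode these were 0.840, 1.00, 1.19 and 1.26.

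Atrial identity genes behaved alike. Of 25 compared of 29, 2 were lower, none was higher, and 20 were below 1 in both technical replicates (1369 of 5715 for all genes). The median log2 ratio of −0.41 became −0.27 against depth-matched resting barcodes and 0.22 per barcode. Counted per barcode, 12 of 25 were above 1 in both technical replicates, beside 4766 of 5715 for all genes. Nppa, the atrial natriuretic peptide (chromosome 4, 148000722 to 148002079), had 13349.7 and 14547 CPM in cycling against 20704 and 21205 CPM in resting barcodes, a ratio of 0.664 (0.651 to 0.678). Per barcode, Nppa gave 124 counts in cycling and 120.4 in resting barcodes. Single cycling barcodes ran from 0 to 148521 CPM of Nppa (median 5469), and single resting barcodes from 0 to 184073 CPM (median 13480). Sln, the calcium pump inhibitor sarcolipin (chromosome 9, 53850164 to 53854560), had 3846 and 4226 CPM in cycling against 7353 and 7462 CPM in resting barcodes, a ratio of 0.543, or 0.844 per barcode. The light chain Myl4 had 0.750, or 1.17 per barcode. The second lower gene was Cpne5, a calcium-dependent membrane-binding copine, at 0.388 (0.198 to 0.690) on 12 cycling counts. Cpne5 was under 20 CPM in cycling barcodes and was compared only through its resting level.

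A right atrial gene was seen in both groups. Bmp10, a growth factor of the right atrium in the adult heart (chromosome 6, 87428994 to 87437677), had 286 and 171 CPM in cycling against 484 and 547 CPM in resting barcodes, a ratio of 0.456 that was 0.591 and 0.313 in the technical replicates. Among barcodes thinned to 3000 counts, 21 of 78 cycling (26.9%, interval 17.5% to 38.2%) and 358 of 874 resting barcodes (41.0%, 37.7% to 44.3%) had a Bmp10 count, beside 2.92% of cycling and 1.15% of resting ventricular ones. Thinning left out 2 cycling and 151 resting barcodes; unthinned shares were 35.0% and 43.2%. The atrial nuclear receptor Nr2f2 had a ratio of 1.29 and the gap junction gene Gja5 0.721.

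Calcium handling and channel genes had a median log2 ratio of −0.27 (0.37 per barcode), with 20 of 28 below 1 in both technical replicates (1369 of 5715 for all genes). Counted per barcode, 15 of 28 were above 1 in both, beside 4766 of 5715 for all genes. The calcium pump Atp2a2 had 3766 and 3556 CPM in cycling against 6179 and 6139 CPM in resting barcodes, a ratio of 0.596, and the release channel Ryr2 had 0.606. The calmodulin genes Calm2 and Calm3 went the other way. Calm2 had 611 and 682 CPM in cycling against 277 and 270.3 CPM in resting barcodes, a ratio of 2.35 (2.11 to 2.61), and Calm3 had 2.23 (1.93 to 2.57). Calmodulin acts in contraction and also at the spindle poles. Both genes encode the same protein, and their transcripts differ.

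In 6 pairs of metabolic enzyme forms, chosen after the values were seen, the muscle form had a smaller ratio of cycling over resting CPM than its widely expressed partner in both technical replicates. All 6 muscle forms had ratios below 1 in both. For subunit 8 of cytochrome oxidase, the last complex of the respiratory chain, the muscle form Cox8b had 665 and 572 CPM in cycling against 1324 and 1073 CPM in resting barcodes, a ratio of 0.514, while the common form Cox8a had 1.11. Cox8b made up 23.7% of the pair's counts in cycling and 40.1% in resting barcodes. Subunit 6a gave 0.631 for the muscle form Cox6a2 and 1.14 for Cox6a1, and subunit 7a gave 0.634 for Cox7a1 and 1.03 for Cox7a2. In glycolysis the muscle mutase Pgam2 had a ratio of 0.554 and its partner Pgam1 1.52, and Pgam2 made up 67.6% of the pair's counts in cycling and 85.1% in resting barcodes. The muscle enolase Eno3 had 0.622 beside 0.916 for Eno1, whose reads can be shared with a near-identical copy, and phosphofructokinase gave 0.788 for muscle Pfkm and 1.61 for Pfkp.

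As whole lists, the metabolic genes stayed within 2-fold with few exceptions. None of 78 nuclear respiratory chain genes and none of 25 compared fatty acid oxidation genes passed 2-fold in both technical replicates. Of all genes 6.21% were higher and 1.10% lower. The median log2 ratios of these 2 lists were −0.09 and −0.19, which became 0.54 and 0.44 per barcode. Every ratio rises per barcode by the difference in depth, and 4766 of 5715 genes were then above 1 in both technical replicates. Relative to the median of all genes, the 2 lists stood at −0.25 and −0.36 and the mitochondrially encoded chain genes at −0.50. All 13 mitochondrially encoded chain genes were below 1 in both technical replicates, at a median of −0.34. It was −0.19 against depth-matched resting barcodes, −0.23 in barcodes with at most 40% mitochondrial counts and 0.29 per barcode, beside the smaller mitochondrial share of cycling barcodes given above. Of 20 compared glycolysis genes, Aldoa, the aldolase of muscle, was the 1 lower member at 0.439 (0.488 and 0.381). Outside these lists, 3 muscle energy genes chosen after their values were seen were lower too: the creatine kinase Ckm at 0.460, myoglobin Mb at 0.477 and the muscle glycogen phosphorylase Pygm at 0.335. The muscle adenylosuccinate synthase Adssl1 had a ratio of 0.303. The coactivator Ppargc1b, which promotes mitochondrial biogenesis, had a ratio of 0.456 (0.215 to 0.857) on 10 cycling counts, and the related Ppargc1a had 0.884. Ppargc1b was under 20 CPM in cycling barcodes and was compared only through its resting level.

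Heart transcription factors and growth signals had 1 member past 2-fold in both technical replicates. It was Ppargc1b, of 20 compared cardiac factors. Of these 20, 13 were below 1 in both technical replicates and 4 above, beside 1369 below and 2668 above of all 5715 genes. Their median log2 ratio was −0.17, beside 0.16 over all genes. Gata4 had a ratio of 1.06, Tbx5 0.785 and Tbx20 0.783. None of 28 compared growth signal genes was past 2-fold in both technical replicates, beside 6.21% higher and 1.10% lower of all genes. Of these 28, 9 were above 1 in both technical replicates and 8 below, with a median log2 ratio of 0.13. The neuregulin receptors Erbb2 and Erbb4, which promote heart muscle division, had 1.23 and 1.27. The insulin-like growth factor Igf2 had 0.887 (0.591 and 1.22) and its neighbour H19 had 1.16 (0.780 and 1.71). Meis1, a factor linked to cell cycle exit in mouse heart, had 1.29. For Igf2 and H19 the technical replicates lay on opposite sides of 1.

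Ribosomal protein genes stayed within 2-fold. Of 47 compared ribosomal protein genes, 38 were above 1 in both technical replicates, beside 2668 of all 5715 genes. Their median log2 ratio was 0.25, beside 0.16 over all genes. Of 13 compared ribosome biogenesis genes (median 0.75), Nop58 at 2.49 and Dkc1 at 2.22, both of the machinery that modifies ribosomal RNA, were higher. Dkc1 was among 4 compared only through their cycling level. The 9 with at least 20 CPM in resting barcodes had a median of 0.37, with 1 higher. Of 13 compared heat shock genes 1 was higher, beside 6.21% of all genes. It was Hsp90aa1, the inducible Hsp90, with 467 and 612 CPM in cycling against 158 and 170 CPM in resting barcodes, a ratio of 3.26 (2.88 to 3.67). None of 8 compared immediate early genes and none of 9 compared p53 target genes was past 2-fold in both technical replicates. Of all genes 6.21% were higher and 1.10% lower, so none in lists this small is near the share over all genes. The p53 target Cdkn1a had a pooled ratio of 3.20 (1.88 and 4.83 in technical replicates 1 and 2).

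Of the 355 higher genes, 206 belonged to no list. The 10 with the largest ratio were led by Fam83d, a spindle protein, with 186 and 144 CPM in cycling barcodes and 3 counts in resting ones, a ratio of 327 (109 to 1609). Gas2l3, which acts at the midbody in cytokinesis, had 265 and 183 CPM in cycling barcodes and 6 resting counts, a ratio of 224 (101 to 619.5). The DNA glycosylase Neil3 at 155, the ubiquitin ligase Neurl1b at 138, the phosphatase inhibitor Cip2a at 54.3, the long noncoding RNA Lockd at 45.5, the ubiquitin-conjugating enzyme Ube2t at 31.3, the kinase activator Dbf4 at 31.0, the centromere protein Cenpl at 27.7 and the checkpoint ATPase Trip13 at 26.2 followed. All 10 were under 20 CPM in resting barcodes and were compared only through their cycling level. Values moved between technical replicates 1 and 2 for Neurl1b (213 and 101), Cip2a (96.7 and 31.5) and Ube2t (48.4 and 22.7), and Neil3 had 72.5 in technical replicate 2 and 0 resting counts in technical replicate 1. Most of these 10 genes have a known place in DNA replication, repair or mitosis, while Neurl1b is known for the Notch pathway.

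Of the 63 lower genes, 55 belonged to no list. Csdc2, an RNA-binding cold shock protein (chromosome 15, 81936759 to 81950941), had 7.73 and 0 CPM in cycling against 42.0 and 38.3 CPM in resting barcodes, a ratio of 0.104 (0.0213 to 0.308) on 3 cycling counts. Dbh, the enzyme that makes noradrenaline (chromosome 2, 27165233 to 27183200), had 10.3 and 0 CPM against 35.6 and 36.4 CPM, a ratio of 0.156 (0.0420 to 0.404) on 4 cycling counts. The predicted gene Gm32849 had 0.156, the proteoglycan Ogn 0.230, the SH3-binding kinase Sbk3 0.262, the antisense transcript 4930455G09Rik 0.289, the SRY-box factor Sox12 0.298, the chromatin remodeller Smarca1 0.299 and the reticulon Rtn2 0.317. Apart from Sbk3, these genes were under 20 CPM in cycling barcodes and were compared only through their resting level. Sbk3, the best counted of them, had 44 cycling counts, and the technical replicates gave 0.168 and 0.409. Smarca1 (0.177 and 0.411) and Rtn2 (0.183 and 0.447) rested on 7 cycling counts each, and Gm32849 (0.194 and 0.0994) on 4. Of the 63, 6 were also at most 0.5 in both technical replicates when counts were taken per barcode.

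Ventricular barcodes split by the same score gave a like picture for the cell cycle lists. Of 4742 genes compared there, 329 (6.94%) were higher and 17 (0.358%) lower in cycling barcodes. The median log2 ratio of the mitotic kinase list was 6.04 in atrial and 5.94 in ventricular barcodes, that of the replication list 1.31 and 1.52, and that of the sarcomere list −0.41 and −0.26. The differences between chambers were not tested. Cdkn1c had a ratio of 0.365 in atrial and 1.03 in ventricular barcodes, where it was too low to be compared by the same filter, at 16.5 CPM in cycling and 16.1 CPM in resting ones. Mybphl was likewise too low in ventricular barcodes, at 4.89 CPM in cycling and 3.33 CPM in resting ones. Nppa had a ratio of 0.664 in atrial and 1.08 in ventricular barcodes, Tcap 0.371 and 0.530, and Cdkn2c 30.8 and 19.2.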

How the data were processed

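Whole hearts of newborn mice were measured by single-cell RNA sequencing as 1 biological sample in 2 technical replicates. The authors deposited whole-number counts per gene and barcode without normalisation. Cell Ranger 2.1.0 and the build mm10 are named in the submitters' processing notes; whether a count is a molecule or a read, and whether strand was used, is not given in the sources used here. Symbols and coordinates came from GENCODE vM21 (GRCm38), which named 27645 of 27999 features; promoters came from RefSeq (GRCm38.p6).

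Counts were summed per group and technical replicate with Python 3.11.15, numpy 2.4.6 and scipy 1.17.1 and scaled to CPM without a pseudocount; figures used matplotlib 3.10.9. The 31 gene lists, the members and the thresholds were chosen with earlier results of these data known, and the code was tested on simulated data. Exact 95% intervals are Clopper-Pearson ones for shares and conditional binomial ones for ratios, and cover counting error only. With 1 biological sample there is no test and no p-value: cells are not replicates, and the technical replicates show only technical spread. No doublet caller was run; 1 alternative left out barcodes with other cell types' markers. Named genes were the up to 4 members per list with the largest and the smallest ratio past 2-fold in both technical replicates, the 10 largest and 10 smallest outside the lists, and 28 fixed heart and cell cycle genes; other genes were chosen after their values were seen. Alternatives covered the score, depth, scaling, filters, fold and each technical replicate. A few genes that the rule names are not reported here.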

Additional observations from a re-analysis of the deposited data

Results flagged for a closer look

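Ppargc1a, the coactivator of mitochondrial biogenesis, lay on opposite sides of 1 in the 2 chambers. Its CPM ratio of cycling over resting barcodes was 0.884 in atrial barcodes (0.901 and 0.863 in technical replicates 1 and 2) and 1.15 in ventricular barcodes (1.09 and 1.23). The difference was not tested, both ratios were within 2-fold, and the atrial ratio ran from 0.794 to 1.37 over the alternatives, with 1.37 for counts per barcode and 0.997 against depth-matched resting barcodes.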

How the results depend on the processing

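Scaling decided the direction of the heart muscle lists. Taken as counts per barcode, a setting chosen after seeing the data, the median log2 ratio turned to 0.23 for sarcomere, 0.22 for atrial identity and 0.29 for mitochondrially encoded chain genes, the mitotic kinase median was 6.68, and 1190 genes were higher and 6 lower; each ratio is larger by the difference in depth by construction. On the CPM scale the sarcomere median was −0.46 with a score of at least 10, −0.54 with matched depth, −0.49 without mitochondrial and haemoglobin genes in the total, −0.56 with the median ratio set to 1 and −0.46 for genes of at least 100 CPM, also chosen after seeing the data. Lower genes numbered 108 after thinning, 103 without mitochondrial and haemoglobin genes and 109 with the median ratio set to 1. Higher and lower genes numbered 811 and 168 without a low count filter, 728 and 252 at 1.5-fold, 197 and 7 at 3-fold, and 90 and 15 at 100 CPM or more. The mitotic kinase median was 5.74 after thinning and 5.75 at 100 CPM or more. With 1 technical replicate left out, higher genes numbered 575 to 652, lower genes 177 to 211, and the sarcomere median was −0.48 to −0.42. The causes of these shifts were not tested. The cycling share stayed between 5.13% and 7.35% in every alternative run. Kif2c, with no resting count, had no ratio to follow. The other 71 named genes past 2-fold kept their direction in every alternative that gave them a ratio, as the threshold fixes for counts per barcode. Of these, 68 stayed past 1.5-fold. At most 17 alternatives gave such a ratio, and 14 did for Aspm. Changes of the low count filter, the fold and the CPM limit were not run for single genes. No paired analysis was possible because the result comes from no test; ratios were taken within each technical replicate. Depth limits low genes: the 80 cycling barcodes held 714962 counts.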
